A study of Mus musculus with 2 samples.

Results

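The widest stretches of open chromatin in mouse blood monocytes are described here. ATAC-seq uses the Tn5 transposase to cut and tag accessible DNA, and a peak is a place where such cuts pile up. Overlapping peaks of the conservative set made from both replicates were merged on chromosomes 1 to 19, and the merged regions of 1200 bp or more were kept. This left 614 wide regions of 27898 regions in all, or 2.20%. The members were chosen by width, so their width and the number of peaks they hold are given as a description and support nothing.

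The study has 1 group, peripheral blood monocytes of C57BL/6J mice aged 5 to 6 weeks, with no treatment and no second cell type. The 2 biological replicates started from 50000 cells apiece, and no comparison between groups was possible. The sources used here do not say how the monocytes were sorted or whether animals were pooled. Each replicate's own peak list was set beside the members, which were called from both replicates, so it is no independent check.

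Monocytes are circulating myeloid cells that enter tissues, sense microbes and become macrophages or dendritic cells. In most cell types a promoter opens as a nucleosome-depleted stretch around the transcription start, while enhancers open as shorter stretches bound by lineage factors such as PU.1 and C/EBP. Wide open stretches are known from CpG-rich promoters of broadly used genes, from promoters that fire in both directions, and from clusters of neighbouring enhancers.

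The label of the cells was checked on marker genes. A promoter was counted as open where a region lay within 1 kb of a protein-coding start. Of 14 monocyte markers, 13 had an open promoter, and the chemokine receptor gene Ccr2 had none in this set. Open promoters were found for 1 of 7 T-cell, 2 of 6 B-cell, 0 of 5 NK-cell, 1 of 6 neutrophil, 1 of 4 erythroid and 0 of 4 platelet markers. Among the 13 open monocyte markers 1, Nr4a1, lay at a wide region, a share close to that of all open promoters given further on. None of the few open markers of the other cell types did.

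Short stretches from 6 wide regions are printed, with GC contents from 37.3% to 68.7%. Each spans 100 bp on both sides of the strongest summit whose window touches no annotated exon, on the plus strand of GRCm38 (mm10). The first 3 come from the widest promoter regions and the other 3 from the widest distal regions. Kmt2e, the widest promoter region of all, had no such window and is not shown. For Lbh and Nfe2l2 the stretch lies at the next strongest summit of the region, with folds of 3.17 and 3.33. The strongest summits of these regions had folds of 6.31 and 7.15. Capitals mark the motifs that were searched.
Lbh promoter region, chr17:72918632-72918832: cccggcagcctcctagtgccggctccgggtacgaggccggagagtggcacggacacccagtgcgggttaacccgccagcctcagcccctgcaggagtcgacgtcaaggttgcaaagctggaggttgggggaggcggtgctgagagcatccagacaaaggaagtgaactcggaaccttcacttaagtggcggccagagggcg
Nfe2l2 promoter region, chr2:75703933-75704133: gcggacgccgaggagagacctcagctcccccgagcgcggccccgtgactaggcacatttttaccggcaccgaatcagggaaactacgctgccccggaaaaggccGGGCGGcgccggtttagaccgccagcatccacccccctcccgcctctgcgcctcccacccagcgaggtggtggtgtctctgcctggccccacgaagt
Cxcr4 promoter region, chr1:128590851-128591051: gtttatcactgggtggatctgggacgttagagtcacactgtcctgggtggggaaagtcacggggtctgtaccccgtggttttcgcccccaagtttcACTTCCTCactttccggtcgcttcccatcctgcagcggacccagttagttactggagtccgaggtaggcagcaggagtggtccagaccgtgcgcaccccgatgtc
Distal region nearest to Ccdc54, chr16:50530209-50530409: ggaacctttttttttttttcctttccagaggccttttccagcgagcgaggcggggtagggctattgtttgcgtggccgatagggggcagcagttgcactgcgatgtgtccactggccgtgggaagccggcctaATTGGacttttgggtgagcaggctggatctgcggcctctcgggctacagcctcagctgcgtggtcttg
Distal region nearest to Hlx, chr1:184536444-184536644: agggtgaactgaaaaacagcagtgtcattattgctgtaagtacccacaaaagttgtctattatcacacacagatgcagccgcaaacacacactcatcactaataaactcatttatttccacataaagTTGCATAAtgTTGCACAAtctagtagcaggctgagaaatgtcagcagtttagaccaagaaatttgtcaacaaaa
Distal region nearest to Rbx1, chr15:81522133-81522333: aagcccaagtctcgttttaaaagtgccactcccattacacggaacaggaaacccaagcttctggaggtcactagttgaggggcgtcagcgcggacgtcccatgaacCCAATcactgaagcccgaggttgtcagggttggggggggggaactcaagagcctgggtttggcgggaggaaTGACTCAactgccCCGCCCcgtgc
The Lbh stretch, at 64.7% GC, held none of the 16 motifs searched. The Nfe2l2 stretch, at 68.7% GC, carried a GC box (GGGCGG), the site of SP and KLF factors. The Cxcr4 stretch carried ACTTCCTC, which read on the other strand is GAGGAAGT, a PU.1 site. The stretch nearest to Hlx was the poorest in GC, at 37.3%, and carried a pair of C/EBP sites (TTGCATAA and TTGCACAA) side by side. The stretch nearest to Rbx1 held a CCAAT box, an AP-1 site (TGACTCA) and a GC box on the minus strand. The stretch nearest to Ccdc54 held a CCAAT box on the minus strand.

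Wide regions covered 0.853 Mb in all. Their widths ran from 1200 to 2360 bp with a median of 1344 bp, against 441 bp in the 27284 other regions. Widths thinned out quickly: 116 regions reached 1500 bp, 22 reached 1800 bp and 5 reached 2000 bp. At the threshold, Cap1 (an adenylyl cyclase-associated actin regulator), Picalm (a clathrin adaptor) and the shared promoter of Gm21992 and Rbm14 were just inside at 1200 bp. Paip2 and the shared promoter of Chp1 and Exd1, both at 1199 bp, and Arhgap23, at 1198 bp, were just outside.

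Each of the 614 was a single deposited interval, listed once for every summit inside it, and 0 of them had been joined from separate intervals. They held 2262 peaks. There were 54 wide regions with 2 peaks, 218 with 3, 234 with 4, 88 with 5, 17 with 6, 2 with 7 and 1 with 8. Neighbouring summits lay a median of 330.5 bp apart in wide regions and 298 bp apart in other regions with several peaks. The density of peaks was 2.57 per kb in wide regions and 2.82 per kb in the others, medians over regions. The unevenness of the summits was compared at the same number of peaks. With 4 peaks, the strongest had a median of 3.03 times the fold enrichment of the weakest in the 234 wide regions and 3.02 times in the 220 others. With 3 peaks, the strongest had 1.55 times the fold of the second in the 218 wide regions and 1.71 times in the 1459 others.

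The 12 widest promoter regions are described first. Kmt2e, which encodes a SET-domain chromatin protein, had the widest region of all, 2360 bp at chr5:23432497-23434856, with 8 peaks. The strongest of them, at a fold of 6.95 in the pooled set, lay 1040 bp upstream of the Kmt2e start. The noncoding gene 5031425E22Rik also starts within 1 kb of the region. The longest stretch found there in each replicate's own set was 2223 bp in replicate 1 and 2025 bp in replicate 2, and the highest fold was 6.54 in replicate 1 and 6.92 in replicate 2. Kmt2e was thus wide in both replicates.

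Lbh, a transcription cofactor gene, followed at 2173 bp (chr17:72917267-72919439) with 6 peaks, the strongest 51 bp upstream of the start. Its longest stretch was 1039 bp in replicate 1 and 898 bp in replicate 2, in 2 and 3 pieces. Nfe2l2, which encodes the oxidative stress factor NRF2, had 2128 bp (chr2:75703418-75705545), with 1157 bp in replicate 1 and 1130 bp in replicate 2. Both regions were therefore over 1200 bp only in the pooled set.

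Cxcr4, the receptor that holds leukocytes in the bone marrow, had 2105 bp at chr1:128590698-128592802. It was the only one of the 12 widest whose strongest summit lay more than 1000 bp downstream of the start, at 1339 bp, with a fold of 5.34 against 3.67 for the summit 32 bp downstream of the start. Its longest stretch was 749 bp in replicate 1 and 900 bp in replicate 2, in 3 pieces each. The PU.1 site printed above belongs to that downstream summit.

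Stat6, the transducer of interleukin-4 signals, had 1976 bp and 7 peaks, with 1711 bp in replicate 1 and 1185 bp in replicate 2. Ppp2r3d, a phosphatase regulatory subunit gene, had 1947 bp, Duxf3, a double homeobox gene, had 1906 bp, and Ggnbp2 had 1844 bp. Each of these 3 exceeded 1500 bp in both replicates. The rest of the 12 were the shared promoters of Hnrnpul2 and Ttc9c (1886 bp) and of Capza1 and St7l (1874 bp), Atp6v0d1, a subunit of the vacuolar proton pump (1850 bp), and Impact, a translation regulator (1846 bp).

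**Figure D1:**
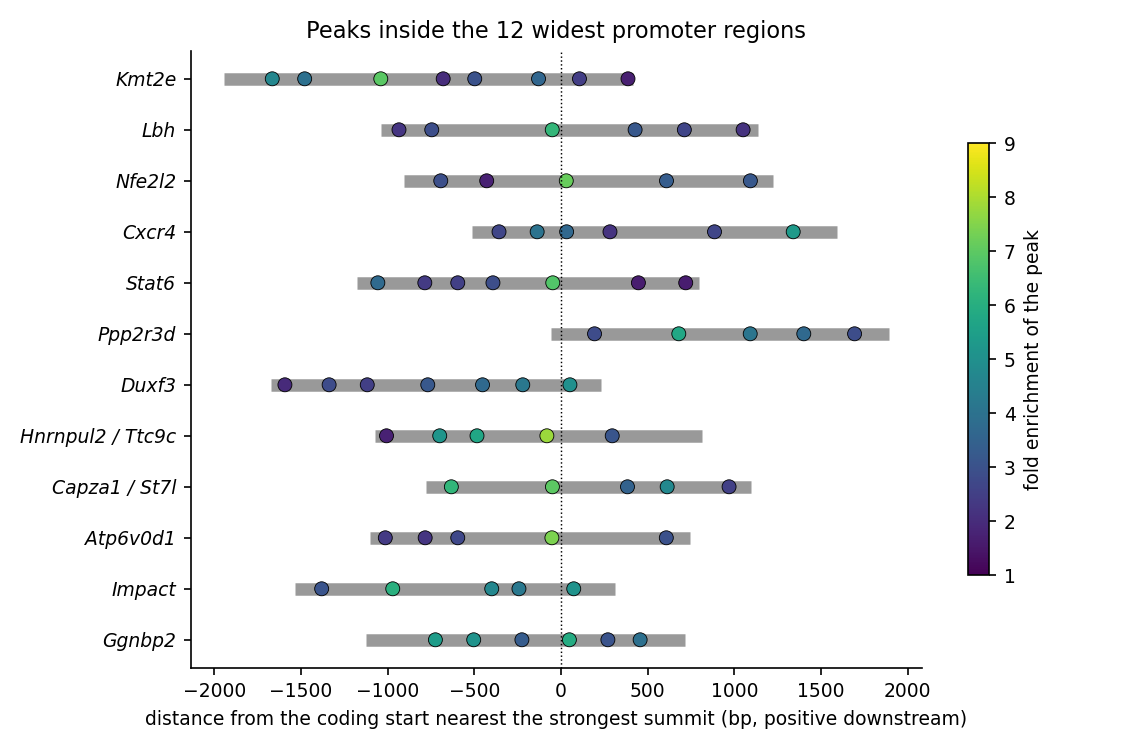
Grey bars show the extent of the 12 widest promoter regions in bp from the protein-coding start nearest to the strongest summit, widest at the top, and points are the summits inside, coloured by the authors' fold enrichment in the pooled set. Kmt2e holds 8 summits with the strongest 1040 bp upstream, Cxcr4 has its strongest 1339 bp downstream, and Lbh, Nfe2l2, Stat6 and Atp6v0d1 have theirs within 60 bp of the start.

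Promoters made up most of the wide regions. Of the 614, 510 (83.1%) lay within 1 kb of a protein-coding start, against 35.9% of the other regions, and 104 were distal. The promoter share climbed with width up to the members' own range, at 12.7% of regions under 300 bp, 28.5% at 300 to 599 bp, 61.5% at 600 to 899 bp, 78.0% at 900 to 1199 bp, 83.7% at 1200 to 1499 bp and 80.2% from 1500 bp on. A wider region reaches more starts, so the share was also taken within 500 bp of the strongest summit, a window that does not depend on width. It was 75.1% of wide regions and 31.4% of the others. Across chromosomes, wide regions made up from 1.66% of regions (chromosome 16) to 2.90% (chromosome 7).

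Strength did not keep growing with width. The median highest fold was 7.49 in wide regions and 6.46 in the others in the pooled set. Among promoters alone it was 7.73 in wide and 7.57 in other regions, and among distal regions 6.31 in wide and 6.05 in other regions. In replicate 1 it was 7.32 in wide promoters and 7.24 in other promoters, and in replicate 2 it was 7.29 in wide promoters and 7.16 in other promoters. Wide distal regions had 6.16 in replicate 1, against 5.84 in other distal regions, and 6.20 in replicate 2, against 5.60. The difference between the medians of wide and other promoters was 0.0764 in replicate 1 and 0.132 in replicate 2. From the first to the third quartile, wide promoters ran from 5.86 to 8.99 in replicate 1 and other promoters from 5.41 to 9.46. The highest fold is taken over a median of 4 peaks in wide regions and 1 in the others. Over individual peaks of the pooled set, the median fold was 3.88 in wide and 5.67 in other regions. It was 3.90 in wide and 5.71 in other promoters, and 3.87 in wide and 5.66 in other distal regions.

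Over width classes, the median promoter fold in the pooled set was 8.63 at 600 to 899 bp and 8.64 at 900 to 1199 bp. It was 7.87 at 1200 to 1499 bp and 6.88 from 1500 bp on. Distal regions had 7.04 at 900 to 1199 bp, 6.66 at 1200 to 1499 bp and 5.65 from 1500 bp on. Both replicates showed the same order from 900 bp on. Spearman's rho of fold with width was -0.18 over the 614 wide regions and 0.41 over the 27284 others, given as a description, since both come from the same lists. The highest fold of any wide region was 14.9, against 36.5 for the strongest of the others. The highest −log10 p of a peak in the region had a median of 61.4 in wide regions and 32.2 in the others.

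**Figure D2:**
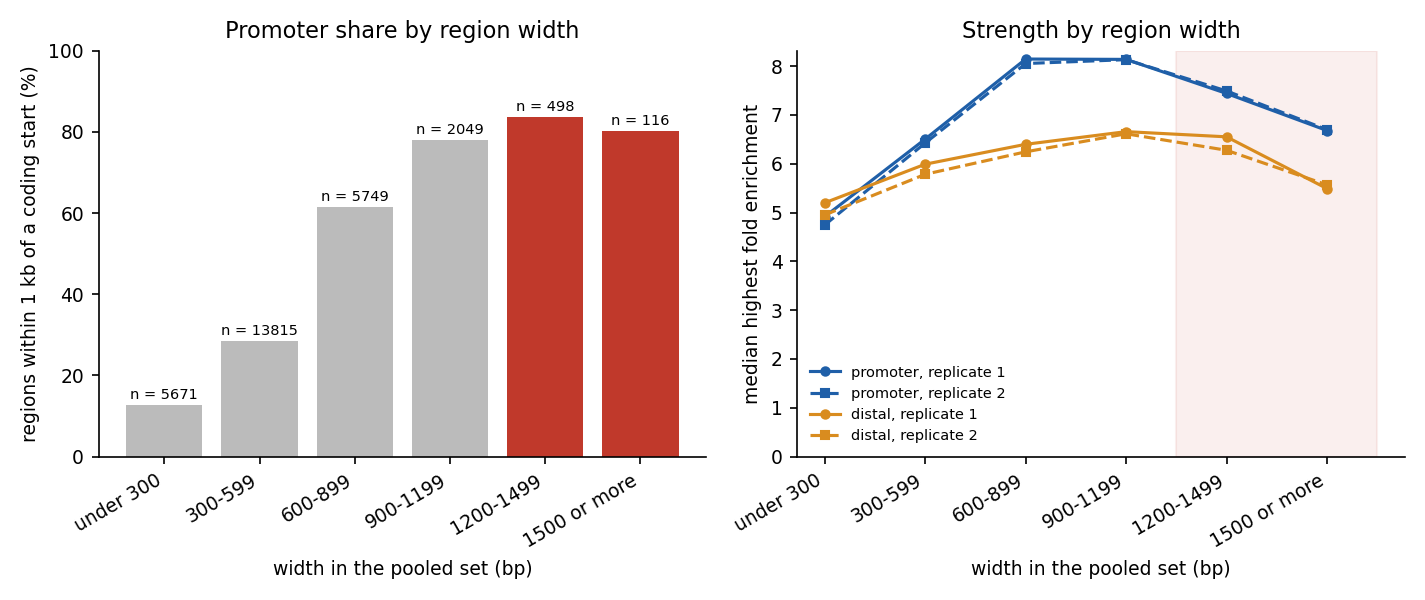
The left panel gives the share of regions within 1 kb of a protein-coding start in each width class of the pooled set, with wide regions in red and the number of regions above each bar. The right panel gives the median highest fold of promoter and distal regions of each class in each replicate's own list, with the wide classes shaded, and promoter fold is highest from 600 to 1199 bp and lower in the wide classes in both replicates.

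The strongest wide promoters were narrow members. Zfp119a, a zinc finger gene, had the highest mean fold of the replicates, 13.9 ± 1.54 (SD, n = 2), with 12.8 in replicate 1 and 14.9 in replicate 2, at a width of 1259 bp. Its sequence has 2 further placements in the genome. The shared promoter of BC055324 and the methyltransferase gene Mettl18 had 13.2 ± 0.532, and Ttbk2, a tubulin kinase gene, had 12.9 ± 0.163. March3, Desi2, Ckap2l, Rnft1 and the shared promoter of Klhl28 and Togaram1 completed the 8 strongest, at mean folds from 11.7 to 12.1. Their widths ran from 1204 to 1366 bp, and 0 of the 8 reached 1200 bp in either replicate's own set.

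Every wide region was found again in both replicates' own lists, while its full width often was not. The members come from a set made from both replicates, and an overlap of 1 bp was enough. Finding them again was thus largely fixed in advance and supports nothing. The 614 all overlapped a region of the pseudoreplicated set, made by splitting the reads of 1 replicate, in replicate 1 and in replicate 2, and 94.5% and 94.8% of the other regions did so too. In the stricter IDR-thresholded sets, which keep peaks whose rank is stable, 88.3% were found in replicate 1 and 90.7% in replicate 2, against 59.1% and 60.2% of the other regions. Among promoters alone the shares were 88.8% and 91.8% of wide ones, against 76.2% and 78.8% of the others. Among distal regions they were 85.6% of wide ones in each replicate, against 49.5% and 49.7% of the others. The longest stretch overlapping a wide region had a median of 982.5 bp in replicate 1 and 1027 bp in replicate 2. It reached 1200 bp for 28.0% of wide regions in replicate 1, for 32.4% in replicate 2, for 14.0% in both and for 53.6% in neither.

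Splitting was common. In replicate 1, 29.5% of wide regions fell into 2 or more pieces, and in replicate 2, 31.8% did, against 2.17% and 1.92% of the other regions. Among the 104 distal members the shares were 45.2% and 53.8%, against 1.20% and 1.15% of other distal regions. All members hold 2 or more peaks, against 28.3% of the other regions and 17.7% of other distal regions. The shares were not compared at equal width or number of peaks, so the contrast follows in part from how members were chosen. Fold was steadier than width between the replicates. The log2 fold difference, replicate 2 minus replicate 1, had an SD of 0.20 over wide regions and 0.24 over the others, and exceeded 1 log2 unit for 1 wide region. Pearson's r between the replicates over the 614 wide regions was 0.880 for log2 fold and 0.426 for width, against 0.879 and 0.751 over the others found in both. These correlations describe regions of the same libraries. The members were chosen by pooled width, and the part of this in the width correlation was not tested. Their replicate widths were not confined to a narrow range. In replicate 1 the quartiles were 748 and 1223 bp, against 287 and 542 bp in the others. In replicate 2 they were 784 and 1243.5 bp, against 292 and 553 bp. Peak lists carry no read counts, so sequencing depth could not be set beside these widths, and its part in them was not tested.

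**Figure D3:**
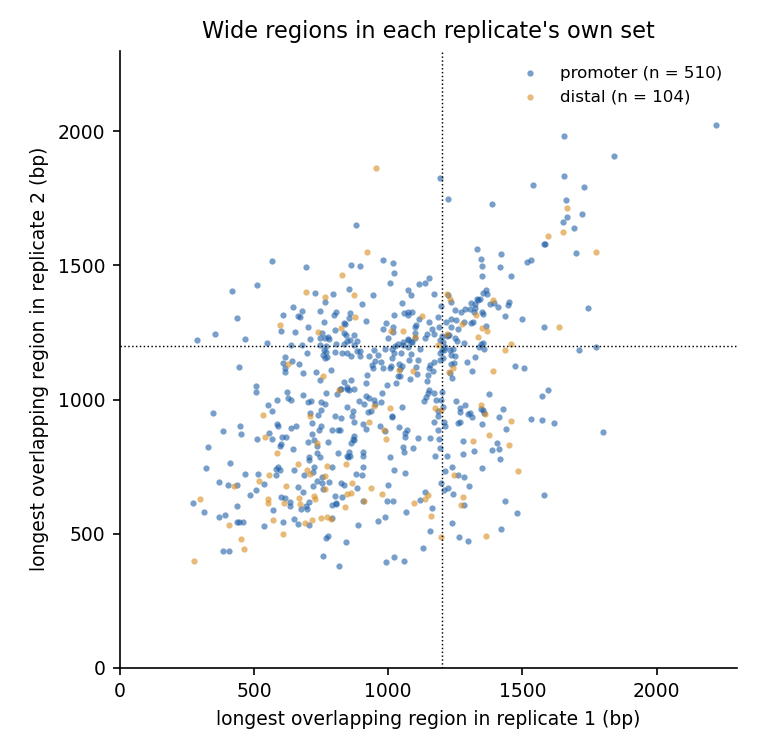
Each point is a wide region, placed by the longest overlapping region in replicate 1 and in replicate 2 (bp, each replicate's own pseudoreplicated set), with promoter regions in blue and distal ones in orange. Dotted lines mark 1200 bp, and 14.0% of the points lie above both lines while 53.6% lie below both.

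Wide promoters often held more than 1 start. Protein-coding starts on both strands lay within 1 kb of 23.1% of wide promoters and of 10.9% of other promoters. With noncoding genes counted as well, the shares were 42.4% and 24.5%. Promoters of 900 to 1199 bp, just below the threshold, came close to the wide ones. Coding starts on both strands lay at 20.3% of them, against 23.0% at 1200 to 1499 bp. For starts of any gene the shares were 35.9% and 41.2%. In the window of 500 bp each side of the strongest summit, which does not grow with the region, coding starts on both strands were present at 19.2% of wide and 8.61% of other promoters. For starts of any gene in that window the shares were 33.5% and 17.4%. The window held 2 or more coding start positions at 60.2% of wide and 50.9% of other promoters.

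Within the region itself, 2 or more coding start positions were annotated in 69.8% of wide and 46.6% of other promoters. That share was 66.0% in promoters of 900 to 1199 bp and 68.8% in those of 1200 to 1499 bp. Where there were several start positions, they spanned a median of 303.5 bp in wide promoters and 86 bp in other promoters. The span cannot exceed the width of the region, so this contrast follows in part from how members were chosen. Ggnbp2 had 8 start positions inside its region, and Nup88 (a nuclear pore protein gene) and Rpain had 5 in a shared promoter of 1825 bp with 6 peaks. That region measured 416 bp in replicate 1 and 1404 bp in replicate 2.

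Where a single coding gene started inside and nothing started on the other strand, wide promoters reached further downstream than upstream. These were 281 wide and 5912 other promoters. The median reach downstream of the start was 749 bp in wide and 282 bp in other promoters, and the median reach upstream was 608 bp in wide and 302 bp in other promoters. The downstream arm was the longer in 58.7% of wide and 46.6% of other promoters. The strongest summit lay within 100 bp of the start in 50.9% of wide and 74.9% of other promoters. The summits beside the strongest one lay downstream of the start in 59.4% of cases in wide and 63.1% in other promoters.

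Base composition set distal members apart more than promoters. The median GC content was 61.2% in wide and 60.7% in other promoters, and 54.3% in wide and 49.6% in other distal regions. The observed over expected CpG ratio, which is near 1 where CpG has not been lost, had a median of 0.768 in wide and 0.734 in other promoters, and 0.346 in wide and 0.235 in other distal regions. CpG-rich DNA, with a ratio of at least 0.6 and at least 50% GC, made up 88.2% of wide and 71.8% of other promoters. It made up 26 of the 104 wide distal regions and 4.40% of other distal regions. Distal regions just below the threshold lay in between. At 900 to 1199 bp their median GC was 52.4% and their median CpG ratio 0.279. At 1200 to 1499 bp these were 54.4% and 0.345, and from 1500 bp on 53.3% and 0.346. Within 100 bp of the strongest summit, a window of the same length everywhere, GC was 64.4% in wide and 62.7% in other promoters and 55.0% in wide and 50.2% in other distal regions.

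Motif strings were searched on both strands within 100 bp of the strongest summit. At promoters the GC box of SP and KLF factors (GGGCGG) was present in 66.7% of wide and 55.3% of other regions, and in 27.1% of all regions. The NRF1 string was present in 10.4% of wide and 7.78% of other promoters, and in 3.23% of all regions. Other strings were less frequent in wide promoters: ETS (CCGGAAG) at 14.3% against 17.7% of other promoters, C/EBP (TTGCNNAA) at 4.12% against 6.38%, and YY1 (AAGATGG) at 3.73% against 6.25%. The same 3 strings were in 8.29%, 10.8% and 4.59% of all regions. The GC box and NRF1 strings are themselves rich in GC, and the part of base composition in these shares was not tested.

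At distal regions the GC box was present in 26.9% of wide and 10.1% of other regions. PU.1 (GAGGAAGT), the myeloid lineage factor, was at 8.65% of wide and 11.9% of other distal regions, C/EBP at 10.6% and 13.5%, and RUNX (TGTGGTT) at 6.73% and 9.68%. The CCAAT box of NF-Y (ATTGG) was at 30.8% of wide and 22.1% of other distal regions, at 36.9% of wide and 34.6% of other promoters and at 26.8% of all regions. AP-1 (TGANTCA) was at 13.5% of wide and 11.3% of other distal regions. The core string of CTCF, an insulator protein, was at 2 of 104 wide distal regions (1.92%) and at 7.95% of other distal regions. PU.1 was in 8.98%, RUNX in 7.23%, AP-1 in 8.53% and CTCF in 5.60% of all regions. The ETS and PU.1 strings share the letters GGAAG. A match is a description of the sequence and no evidence of binding.

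**Figure D4:**
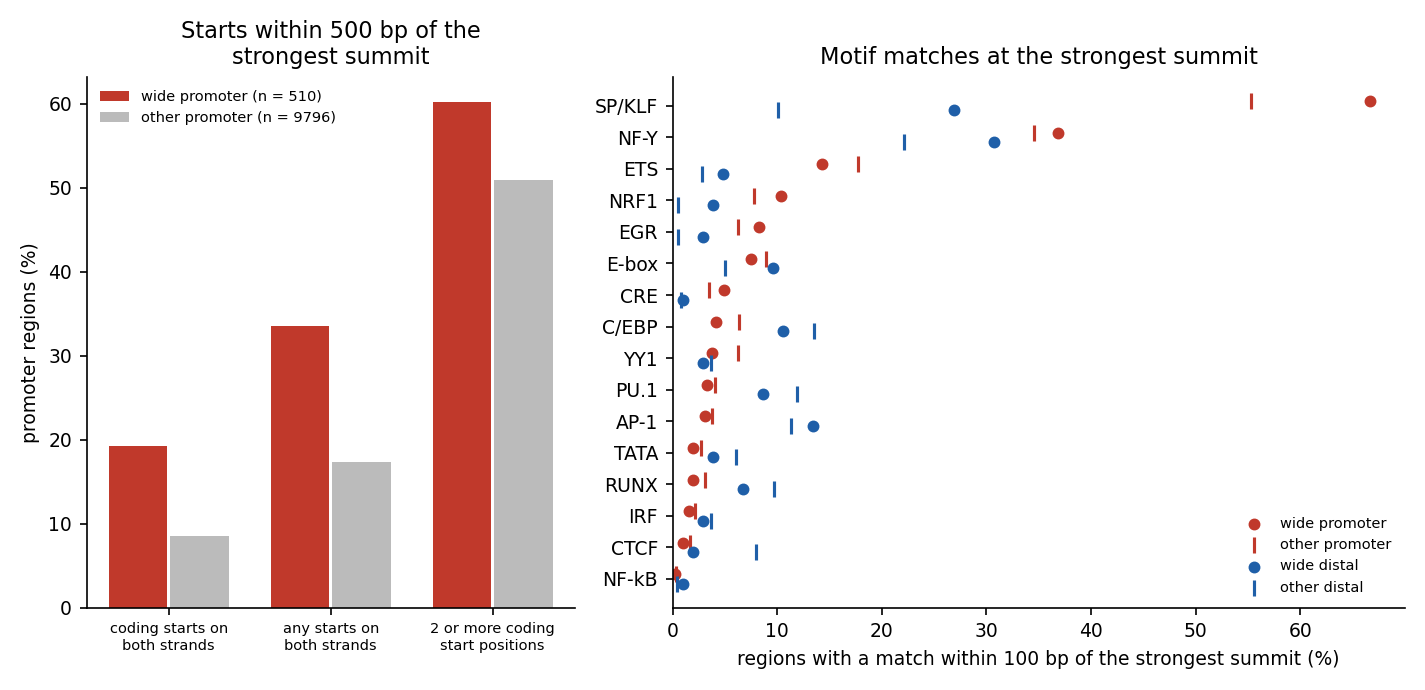
The left panel gives the percentage of wide and other promoter regions with coding starts on both strands, with starts of any gene on both strands and with 2 or more coding start positions within 500 bp of the strongest summit. The right panel gives the percentage of regions with each motif string within 100 bp of the strongest summit, wide regions as circles and other regions as ticks, and the GC box of SP and KLF factors stands highest in wide promoters at 66.7%.

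The 510 wide promoters belonged to 632 protein-coding genes, which is 3.05% of the 20722 on chromosomes 1 to 19 and 6.39% of the 9892 with an open promoter. Gene lists are read against these shares, as counts without a test. The lists were chosen with earlier results of these data known.

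Splicing factors, which assemble on pre-mRNA to choose its exons, were the list with the most members. All 35 listed genes had an open promoter, and 12 of them (34.3%) had a wide one. Hnrnpa1, an hnRNP gene whose promoter is shared with Cbx5, had 1755 bp and 5 peaks, with 1222 bp in replicate 1 and 1749 bp in replicate 2 and folds of 7.64 and 8.49. Hnrnpa2b1, whose promoter is shared with Cbx3, had 1670 bp, with 1171 bp in replicate 1 and 1141 bp in replicate 2 and folds of 8.99 and 7.91. In human cells the pair HNRNPA2B1 and CBX3 is known as a ubiquitous chromatin opening element. U2af2, the factor that binds the polypyrimidine tract, had 1496 bp, with 1345 bp and 963 bp.

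The other splicing genes with a wide promoter were Rbm39, Clk1, Ddx17, Srsf5, Ddx5, Srsf2, Srsf3, Srsf1 and Srsf7, and 5 of the 12 regions also lay at the start of another coding gene. In each replicate's own set, with promoters assigned anew, 7 of the 35 genes reached 1200 bp in replicate 1 and 6 of the 35 in replicate 2, against 1.95% and 2.15% of all genes with an open promoter there. The median width of the widest promoter region per gene was 783 bp for splicing factors in replicate 1 and 796 bp in replicate 2, against 549 bp and 571 bp over all genes with an open promoter.

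The 35 listed ribosomal protein genes were all open as well, and none was wide. The median width was 772 bp, above the 696 bp over all genes in the pooled set, and 0 of 35 reached 1200 bp. Outside this list, 3 further genes whose symbols start with Rpl or Rps had a wide promoter, as given with the families. The 29 respiratory chain genes were likewise all open, with a median of 753 bp and 0 wide. MHC class II presentation genes had 13 open promoters with a median of 461 bp and 0 wide. Interferon response genes had 21 open promoters with 0 wide. At 1000 bp the counts were 4 of 29 respiratory chain, 0 of 13 MHC class II and 0 of 21 interferon response genes. Beside the 6.39% over all open promoters, a count of 0 in lists of this size is a difference of few genes.

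Myeloid transcription factors had 6 wide promoters among 36 open ones (16.7%). Besides Nfe2l2, they were Rel, an NF-kB subunit, with 1494 bp and folds of 5.36 in replicate 1 and 4.51 in replicate 2, and Ets2, with 1492 bp and folds of 5.94 and 6.98. Etv6, Klf13 and Nr4a1, a nuclear receptor gene of patrolling monocytes, made up the rest. In the replicates' own sets the count was 0 of 36 in replicate 1 and 3 of 37 in replicate 2. At 1000 bp it was 5 of 36 (13.9%) in replicate 1 and 7 of 37 (18.9%) in replicate 2, against 6.00% and 7.27% of all open promoters.

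Immediate early and RNA decay genes had 3 wide promoters among 32 open ones (9.38%). They were Jun, an AP-1 subunit, with 1596 bp, Tnfaip3, the brake on NF-kB signalling known as A20, with 1437 bp, and Socs3, an inhibitor of cytokine signalling, with 1396 bp. The widths of Jun were 1407 bp in replicate 1 and 839 bp in replicate 2, those of Tnfaip3 466 bp and 1227 bp, and those of Socs3 608 bp and 542 bp. Histone-modifying and remodelling enzymes had 4 among 39 (10.3%), led by Kmt2e and followed by the acetyltransferase Kat7 with 1394 bp and the demethylase Kdm5a with 1336 bp. Both shares are near the 6.39% over all open promoters, a difference of 1 to 2 genes.

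Genes of monocyte surface and effector function were wide about as often as open promoters in general. Monocyte identity genes had 2 wide promoters among 23 open ones (8.70%), those of Fcgr3, an activating IgG receptor, with 1343 bp, and Emilin2, a matrix glycoprotein, with 1322 bp. Fcgr3 measured 1273 bp in replicate 1 and 1325 bp in replicate 2, with folds of 3.65 and 3.70, and its sequence has 2 further placements in the genome. Emilin2 measured 383 bp in replicate 1 and 434 bp in replicate 2. Cxcl2, a neutrophil chemokine, was the single wide one of 14 open cytokine and chemokine promoters (7.14%), and Tlr6, a Toll-like receptor, the single one of 17 innate sensor promoters (5.88%). Mcm7, a subunit of the replicative helicase, was the single one of 27 cell cycle promoters (3.70%), in a promoter shared with Ap4m1. T-cell, B-cell, HOX, neuron and hepatocyte genes had between 1 and 5 open promoters per list and 0 wide ones.

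**Figure D5:**
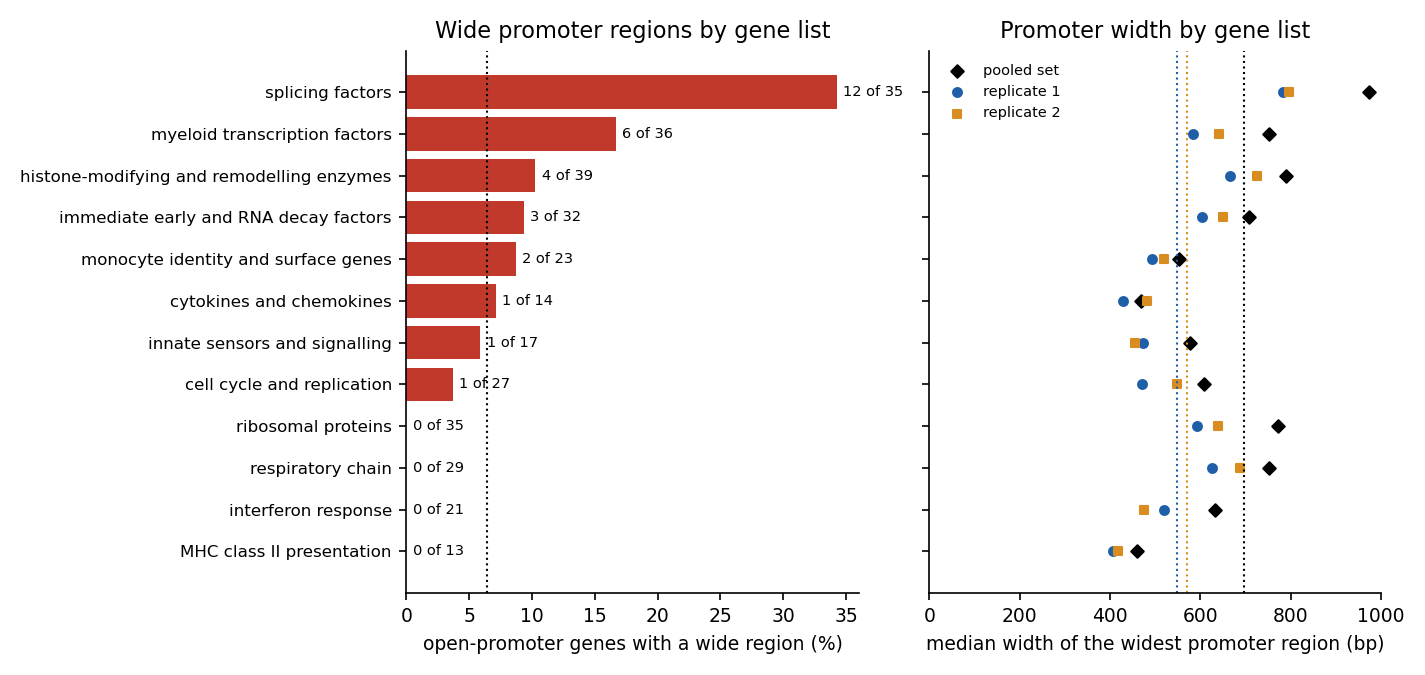
The left panel gives the percentage of genes with an open promoter that had a wide one, for the 12 lists with 10 or more open promoters, and the dotted line is the 6.39% over all genes. The right panel gives the median width of the widest promoter region per gene in the pooled set and in each replicate's own set, with dotted lines at the medians over all genes. Splicing factors lie highest on every measure. The 35 listed ribosomal protein genes have a median of 772 bp and 0 wide promoters in the pooled set, and 7 of them reach 1000 bp there.

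Families were also read from gene symbols, and those named here were chosen after their values were seen. Serine and arginine rich factors (Srsf) had 5 wide among 10 open promoters and hnRNP genes (Hnrnp) 5 among 19. Lysine demethylases and methyltransferases (Kdm and Kmt) had 6 among 21, a larger share than the list of histone-modifying and remodelling enzymes above. Zinc finger genes (Zfp) had 19 among 276 (6.88%), and solute carriers (Slc) 8 among 156 (5.13%), close to the share of all open promoters. Genes with Rpl or Rps symbols had 3 among 72, namely Rpl7l1, Rps29 and Rpl34, of which Rpl7l1 is named as an Rpl7-like gene. Those of the mitochondrial ribosome (Mrpl and Mrps) had 2 among 75 and proteasome genes (Psm) 1 among 46. Histone genes (Hist) had 63 open promoters, a median width of 403 bp and 0 wide ones.

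The 104 distal members lay a median of 21.1 kb from the nearest coding start, and their strongest summits were intergenic in 51.9%, intronic in 36.5% and exonic in 11.5%. In other distal regions these shares were 42.9%, 49.3% and 7.77%. A start of a noncoding or other gene lay within 1 kb of 22 of the distal members, and a noncoding transcript of a coding gene started at 8 more. This makes 28.8% with an annotated start, against 10.7% of other distal regions. A wider region reaches more starts here too, and this share was not taken in a window of fixed length. The remaining 74 had no annotated start at all. The 30 with a start had a median GC of 58.0%, a CpG ratio of 0.572 and 43.3% CpG-rich regions. The 74 without one had 52.6% GC, a ratio of 0.274 and 17.6% CpG-rich regions. The median highest fold of those with a start was 6.34 in replicate 1 and 6.43 in replicate 2, and of those without one 6.09 and 6.02.

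The motifs at these distal regions were counted by the same division. In the 74 without a start the GC box was found in 15 (20.3%), C/EBP in 10 (13.5%), AP-1 in 10 (13.5%), PU.1 in 8 (10.8%), RUNX in 7 (9.46%) and IRF in 0. In the 15610 other distal regions without a start the GC box was found in 8.98%, C/EBP in 13.8%, AP-1 in 11.6%, PU.1 in 12.05%, RUNX in 9.94% and IRF in 3.62%. In the 30 with a start the GC box was found in 13 (43.3%), AP-1 in 4 (13.3%), IRF in 3, C/EBP in 1, PU.1 in 1 and RUNX in 0. The other distal regions with a start were not counted apart, so these counts have no like share beside them.

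Distal regions are named by the nearest coding start, which does not make that gene their target. The widest, 2001 bp at chr16:50528455-50530455 with 6 peaks, lay 60.8 kb from the start of Ccdc54 and at the start of the noncoding gene G730013B05Rik. Its CpG ratio was 0.759, and it measured 864 bp in replicate 1 and 690 bp in replicate 2 in 2 pieces each. The next, 1944 bp at chr1:184535418-184537361, lay 195 kb from the start of Hlx, a homeobox gene, with a CpG ratio of 0.175 and folds of 5.59 in replicate 1 and 6.29 in replicate 2. The third, 1901 bp at chr15:81521910-81523810, lay 55.6 kb from Rbx1, a ubiquitin ligase subunit gene, and measured 955 bp in replicate 1 and 1864 bp in replicate 2.

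Others of the 12 widest distal regions differed as much. One of 1787 bp lay 21.5 kb upstream of Gvin1, an interferon-induced GTPase gene, with the lowest GC of the 12 widest, 39.4%, and measured 298 bp in replicate 1 and 629 bp in replicate 2. One of 1664 bp lay 27.6 kb upstream of Jak1, a kinase of cytokine receptors, with a CpG ratio of 0.671. One of 1779 bp had its strongest summit in an intron, 2.83 kb downstream of the start of Maml3, a Notch coactivator gene, and was wide in both replicates, at 1775 bp in replicate 1 and 1550 bp in replicate 2. The region nearest to Rnf19b measured 1756 bp, and that nearest to Muc6 1783 bp.

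Some genes had several wide regions. Syk, the kinase that signals below Fc receptors, had a wide promoter of 1234 bp and a distal region of 1755 bp at chr13:52571739-52573493, 10.5 kb upstream. The distal one measured 1125 bp in replicate 1 and 1310 bp in replicate 2, with folds of 5.49 and 6.00, and the promoter 768 bp and 1200 bp, with folds of 5.51 and 5.35. Bhlhe40, a transcription repressor gene, was nearest to a pair of distal wide regions 90.1 kb upstream and 35.2 kb downstream, of 1391 and 1204 bp. Kdm6b, a histone demethylase gene, had a pair downstream of its start, of 1264 bp at 3.18 kb and 1367 bp at 4.92 kb.

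Pcbp1, Ptma and Rab10 each had a wide promoter and a second wide region between 22.4 and 74.6 kb away. Ppp2r3d was the gene with the most, 3 regions within 1 kb of a start, of 1731, 1399 and 1947 bp. The 1731 bp and 1399 bp ones are separate intervals that nearly touch, and all 3 had folds between 4.10 and 5.60 in replicate 1 and between 3.96 and 5.23 in replicate 2. Olfr56 had 2 regions within 1 kb of its starts, both with a second placement in the genome.

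Few members had a second placement in the genome, and soft-masked repeat was a small part of most members. Its median share was 5.49% in wide and 7.01% in other regions. A second placement in the genome, over at least 50% of the length at 90% identity, was found for 17 wide regions (2.77%), against 2.01% of the others, and for 5.77% of the distal members, against 1.93% of other distal regions. Among the 12 widest of each kind, those of Duxf3 and of Gpr137b-ps, the pseudogene near Ero1lb, had one. The region nearest to 2010315B03Rik, 1738 bp with folds of 8.37 in replicate 1 and 7.08 in replicate 2, was 80.0% soft-masked repeat. Outside the 12 widest, the distal region nearest to Smo was 99.7% soft-masked, with folds of 11.0 in replicate 1 and 10.8 in replicate 2. That nearest to Zfp825 was 99.2% soft-masked and that nearest to Vmn1r2 74.4%. None of these highly repeated regions had a second placement by the measure above. Whether that search finds copies of abundant repeats was not tested, so this does not show that their sequences are unique. The sources used here do not say how reads with several placements were handled, and their part in these widths was not tested.

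Wide regions stood somewhat apart from other open chromatin, wide promoters more so than distal members. The median gap to the nearest other region was 13550 bp for wide regions and 7433 bp for the others, and 40.2% of wide regions had another within 10 kb, against 58.0% of the others. Among promoters these shares were 37.3% of wide and 55.2% of other ones, and among distal regions 54.8% and 59.6%. The median gap of distal regions was 9118 bp for wide and 7181 bp for other ones. Summits inside a wide region do not count as neighbours, and the part of this was not tested. All values are averages over many cells, so a region open over its full width in each cell and shorter stretches open in different cells cannot be told apart here.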

How the data were processed

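Monocytes from blood were measured by ATAC-seq in 2 replicates, numbered as in the labels, on mm10 per the labels. Neither aligner nor peak caller is named, and how reads were shifted for Tn5 or stripped of duplicates is not given in the sources used here. A peak's fold enrichment is a ratio over background as deposited by the authors, and folds were not scaled between lists. The −log10 p of each peak is as deposited by the authors. The score of a peak in the thresholded sets is the authors' IDR score, scaled to at most 1000, with 540 as the lowest value deposited. No read counts were used, so depth is unknown and no interval of counting error can be given.

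The conservative set of the series, made by the authors from both replicates, was the main set. Peaks that share 1 bp were merged on chromosomes 1 to 19, and a region has the highest fold of its peaks and the summit of the smallest p-value. Replicate values are the highest fold and longest region among those overlapping a member in the authors' pseudoreplicated set of that replicate. Genes were taken from GENCODE M21 and bases from GRCm38.p6. A promoter region lies within 1 kb of the start of a protein-coding transcript. Second placements were found with minimap2 2.31 (at least 50% of the length at 90% identity), and other steps used Python 3.11.15 with pandas 2.3.3. Merging and overlap steps were checked on simulated intervals.

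With 1 group there was no test between groups, and no p-value was computed. Differences from other regions are descriptions. Named regions are the 12 widest promoter and 12 widest distal ones, the 8 with the most peaks, the 8 strongest promoters by mean replicate fold, the 3 on each side of the threshold, the 3 widest of each gene list and genes with several wide regions. Other listed or family genes and further regions of high repeat content were named after their values were seen. Of 478 listed genes, 13 were not found as protein-coding on chromosomes 1 to 19. The members and lists were chosen with earlier results of these data known.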

Additional observations from a re-analysis of the deposited data

How the results depend on the processing

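The number of wide regions depends on the threshold and on pooling. It was 1687 at 1000 bp and 116 at 1500 bp, against 614 at 1200 bp, and 181 to 203 in the own IDR-thresholded set of 1 replicate. It stayed within 1.5 times in the other IDR-thresholded set of the series (619), the replicated peaks (633), at a score of 830 or more (589), with peaks up to 150 bp apart merged (803) and with chromosomes X and Y (627). The promoter share, 83.1%, was 82.0% at 1000 bp, 80.2% at 1500 bp, 81.1% with nearby peaks merged, 81.6% where the region had to hold a coding start, 87.9% with starts of any annotated gene and 82.9% to 84.2% in single replicates. The median highest fold, 7.49, was 8.02 at 1000 bp, 6.75 at 1500 bp, 7.42 in the replicated peaks, 7.65 at the stricter score, 7.26 with nearby peaks merged and 7.08 to 7.17 in single replicates. The median number of peaks, 4, was 3 at 1000 bp and 3 to 4 in single replicates. Promoters with opposite coding starts, 23.1%, were 28.7% to 32.2% in single replicates and 40.6% with starts of any gene. Median GC, 60.5%, was 59.9% at 1500 bp and 60.3% to 61.0% in single replicates. Outside the counts of regions and the single-replicate ranges, each of these moves exceeds the SD between the 2 replicates' own sets, and the cause was not tested. Alternatives for the splicing factors were chosen after seeing the data: of 35 genes, 12 were wide, 17 at 1000 bp, 2 at 1500 bp, 15 with nearby peaks merged, and 6 to 7 in single replicates. No paired analysis was possible because there is 1 group.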
